A study of Chlamydomonas reinhardtii with 2 samples.

Results

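The genes described here carry out nitrogen assimilation and amine oxidation in Chlamydomonas reinhardtii, a unicellular green alga. They were chosen by gene symbol from 10 names, and 9 of these had a row among the 17147 loci of the expression table: the nitrite and nitrate reductase genes NII1 and NIT1, the glutamine synthetase genes GLN1 to GLN4, the glutamate dehydrogenase genes GDH1 and GDH2, and the copper amine oxidase gene AMX2. AMX1 was not analysed here. The libraries came from the wild-type strain CC-1690, also called 21gr, cultured in acetate medium under constant illumination (70 µmol per m2 and s) on a 200 rpm shaker kept at 25 °C. One culture was held for 24 h without added phosphate (phosphate deprived) and the other for 24 h with 1.1 mM phosphate (phosphate replete). There was 1 library per condition, so no value has a replicate error and no test between the conditions was possible. Every difference below is a difference between these 2 libraries.

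In algae, nitrate is reduced to nitrite by nitrate reductase in the cytosol and nitrite to ammonium by nitrite reductase in the chloroplast. Ammonium enters amino acids through glutamine synthetase and glutamate synthase, while glutamate dehydrogenase interconverts glutamate and 2-oxoglutarate and is generally linked to glutamate breakdown in plants. Copper amine oxidases release ammonium from primary amines. In Chlamydomonas the nitrate assimilation genes are repressed by ammonium, the nitrogen source of standard Tris-acetate-phosphate medium.

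Levels are given in RPKM, which scales reads to transcript length and library depth, so genes can be set beside each other. A log2 fold compares deprived with replete after 1 RPKM is added to either value, which shrinks the differences of genes near or below 1 RPKM. Genes at least 2-fold different on that scale were counted by size alone. Intervals given below are 95% exact intervals computed for a transcript of 1000 bases from the number of reads inferred to lie behind 1 RPKM. They cover counting error only, and a longer transcript would have more reads and a narrower interval. Intervals of ratios and shares leave out a count that seems added to every gene in the deposited values. Printed ratios, printed shares and the intervals of levels still hold it. A printed ratio with few reads behind it therefore need not lie near the middle of its interval.

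AMX2 and NII1 had much higher levels in the deprived library and GDH1 a moderately higher level. GDH2 and the main glutamine synthetase genes GLN1 and GLN2 lay in the body of the distribution over all genes. NIT1 had no detectable reads in either library. Of the 8 members with a mean of at least 1 RPKM, AMX2 and NII1 (2 genes) exceeded 2-fold in the direction of the deprived library and 0 exceeded it in the other. Of all 13855 genes past the same filter, 5.59% were higher by 2-fold or more and 1.64% lower by 2-fold or more. AMX2 and NII1 were below 1 RPKM in the replete library and passed the filter only through the deprived library, so the 8 are not a neutral set. Over all 9 measured members the count was also 2 higher and 0 lower, against 4.58% higher and 1.32% lower of all 17147 loci. The median log2 fold was 0.24 over the 8 members and 0.14 over the 13855 genes, and 5 of the 8 lay above 0.14.

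Because the median over all genes is itself 0.14, small folds depend on how the libraries are scaled. Scaling both to the same median moved the median over all genes by -0.17, trimmed mean scaling by -0.15, quantile normalization by -0.17 and scaling to the same sum by 0.06. With equal medians, 513 genes passed 2-fold upward and 440 downward, against 775 and 227 as deposited. The counts were 534 and 407 with trimmed mean scaling and 512 and 395 with quantile normalization. AMX2 and NII1 stayed at least 2-fold higher under all 4 scalings, as shifts of this size leave folds as large as theirs past 2-fold.

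**Figure D1:**
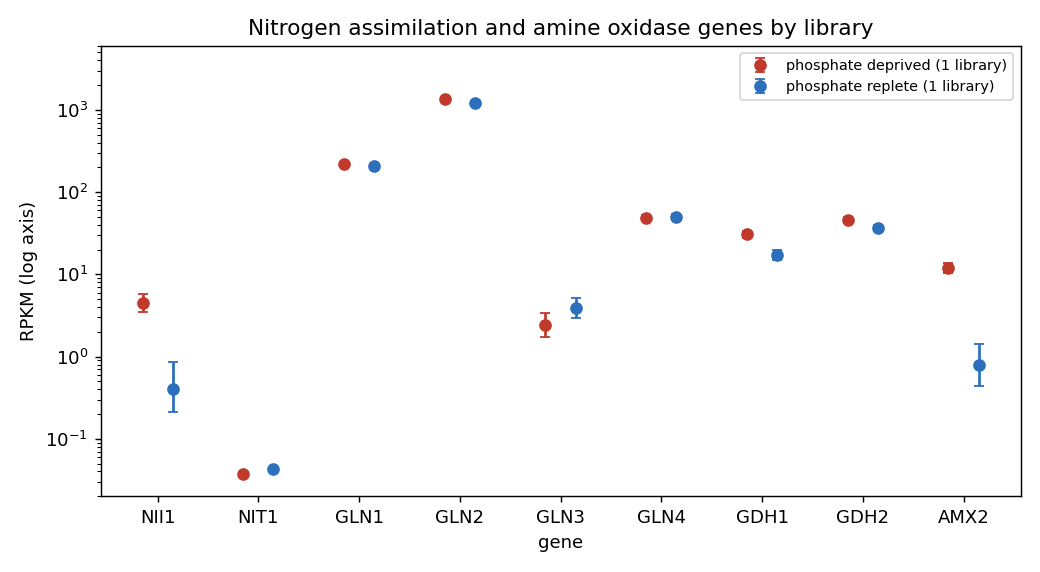
RPKM (log axis) of the 9 measured members in the phosphate deprived library (red, left of each pair) and the phosphate replete library (blue, right), 1 library each. Bars are 95% exact counting intervals for a transcript of 1000 bases, shorter than the symbol for abundant genes and not drawn for NIT1. The points of AMX2 and NII1 lie far apart between the libraries, while those of GLN1, GLN2 and GLN4 lie close together.

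Nitrate and nitrite reduction comes first in the pathway, and its members behaved unlike each other. NII1 (Cre09.g410750) encodes nitrite reductase, the chloroplast enzyme that makes ammonium from nitrite. NII1 had 4.53 RPKM in the deprived library, against 0.405 RPKM in the replete library, a ratio of 11.2 and a log2 fold of 1.98. The interval of the ratio ran from 5.98 to 91.0, and it is wide because only about 3 reads would lie behind the replete value at 1000 bases. Of the 13855 genes, 1.06% had a fold at least as high. The size of the NII1 fold depends on the pseudocount: it was 3.48 without one and 0.82, under 2-fold, with 5 RPKM.

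NIT1 (Cre09.g410950), the nitrate reductase gene, had 0.0371 RPKM in the deprived and 0.0426 RPKM in the replete library. The ratio of these values is shared by 1249 loci in the table and looks like that of loci no read was counted for, which is inferred from the deposited values alone. Under that reading, the NIT1 values consist of the added count alone. Without that count, 3 reads would correspond to 0.0557 RPKM in the deprived and 0.0640 RPKM in the replete library. These limits are thus on another scale than the NIT1 values above. NIT1 transcripts were not detectable at this depth in either library, and no fold is given.

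NII1 and NIT1 lie close together in the nitrate gene cluster: in the RefSeq gene order of assembly v5.5 they are separated by 3 loci. The neighbours are outside the naming rule and were looked at after the NII1 values were seen. NAR3, encoding a nitrate and nitrite transporter, had 0.0726 RPKM in the deprived and 0.0834 RPKM in the replete library, the same pattern of no reads as NIT1. NAR2, whose product works with such transporters, had 0.384 RPKM in the deprived and 0.145 RPKM in the replete library. The remaining locus between them, which has no symbol in the table (Cre09.g410800), had 0.144 and 0.0823 RPKM in the deprived and replete libraries. Each of these 3 loci stayed under 1 RPKM in both libraries, whereas NII1 reached 4.53 RPKM in the deprived library. NAR1.1 (Cre09.g411000), a nitrite transporter gene whose locus number follows that of NIT1, had 1.40 RPKM in the deprived and 1.77 RPKM in the replete library, and its replete level was above that of NII1. NIT2, the regulator that activates the nitrate genes and likewise outside the naming rule, had 0.710 RPKM in the deprived and 1.06 RPKM in the replete library, values whose ratio has an interval of 0.221 to 1.73.

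Glutamine synthetase joins ammonium to glutamate, and its genes were by far the most abundant of the members. GLN2 (Cre12.g530650), the chloroplast isozyme gene, had 1349 RPKM in the deprived and 1199 RPKM in the replete library, ranking 131 and 143 among 17147 loci. GLN1 (Cre02.g113200), the cytosolic isozyme gene, had 220 RPKM in the deprived and 207 RPKM in the replete library. The log2 folds were 0.17 for GLN2 and 0.09 for GLN1, both near the median over all genes. They were below 0 when the medians were made equal (-0.04 and -0.12) and with trimmed mean scaling (-0.01 and -0.09), so no direction can be given for them.

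GLN4 (Cre03.g207250) is annotated as a putative glutamine synthetase without predicted organelle targeting. GLN4 had 49.0 RPKM in the deprived and 50.5 RPKM in the replete library, with an interval of the ratio from 0.871 to 1.08. Its log2 fold of -0.04 turned to 0.03 after scaling to the same sum.

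GLN3 (Cre12.g530600), a plastid isozyme gene, had 2.45 RPKM in the deprived and 3.93 RPKM in the replete library. Its log2 fold of -0.51 was the lowest of the members, stayed below 0 under all 4 scalings, and had an interval of the ratio from 0.379 to 0.974. In the table's annotation GLN3 sits head-to-head with GLN2 and is nearly identical to it in coding sequence. Its level was 550 times lower than that of GLN2 in the deprived library and 305 times lower in the replete library. How reads matching both copies were assigned is not given in the sources used here, so the GLN3 value is uncertain to that extent.

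The division of the family differed little between the libraries. The 4 genes together summed to 1620 RPKM in the deprived and 1461 RPKM in the replete library. GLN2 made up 83.2% of that sum in the deprived library (interval 82.8% to 83.7%) and 82.1% in the replete library (81.6% to 82.7%), a difference of 1.12 percentage points with no replicate check that was 2.24 points after quantile normalization. GLN1 made up 13.6% in the deprived and 14.2% in the replete library. GLN4 made up 3.03% in the deprived and 3.46% in the replete library, and GLN3 0.151% in the deprived and 0.269% in the replete library.

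**Figure D2:**
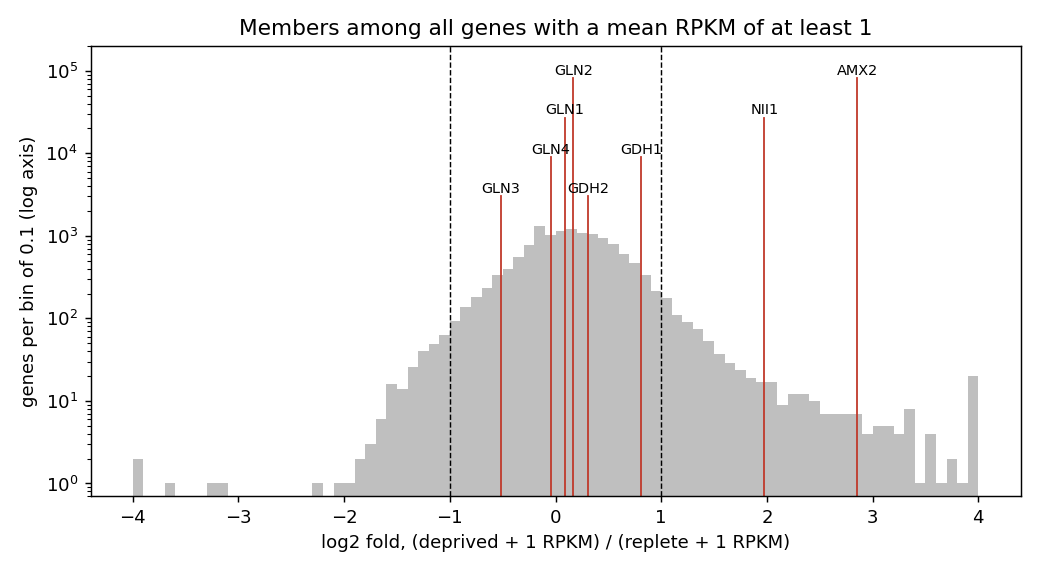
Distribution of the log2 fold, deprived over replete with 1 RPKM added to each, over 13855 genes with a mean of at least 1 RPKM (grey, log count axis; folds beyond -4 or 4 are placed in the end bins), with the 8 members past that filter as red lines. Dashed lines mark 2-fold. GLN1, GLN2, GLN4 and GDH2 fall in the body of the distribution, while NII1 and AMX2 fall in its upper tail.

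Glutamate dehydrogenase was represented by a pair of genes predicted to encode mitochondrial enzymes, the prediction being weak for GDH2. GDH1 (Cre09.g388800) had 30.8 RPKM in the deprived and 17.1 RPKM in the replete library, a log2 fold of 0.81 that 9.23% of the 13855 genes reached or passed. The interval of its ratio, 1.53 to 2.14, lay above 1, as did those of GLN1 (1.01 to 1.12) and GLN2 (1.10 to 1.15). A ratio above 1 does not set a gene apart, because the median log2 fold over the 13855 genes was 0.14. GDH2 (Cre05.g232150) had 46.0 RPKM in the deprived and 36.8 RPKM in the replete library, a log2 fold of 0.31 that 36.5% of the 13855 genes reached or passed, with an interval of the ratio from 1.11 to 1.41.

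Both folds stayed above 0 under all 4 scalings, between 0.61 and 0.88 for GDH1 and between 0.11 and 0.38 for GDH2. After quantile normalization the GDH2 fold (0.19) was below that of GLN2 (0.34). GDH2 was the more abundant of the pair in both libraries, at 1.49 times GDH1 in the deprived and 2.15 times in the replete library. Summed glutamine synthetase RPKM was 21.1 times summed glutamate dehydrogenase RPKM in the deprived library and 27.1 times in the replete library. This ratio is taken within a library, so a scaling by 1 factor leaves it as it is.

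The amine oxidase gene AMX2 (Cre01.g000650) had the largest fold of the members. It is annotated as a copper amine oxidase that may be peroxisomal. AMX2 had 11.9 RPKM in the deprived library, against 0.784 RPKM in the replete library, a ratio of 15.2 and a log2 fold of 2.86. The interval of the ratio ran from 9.12 to 43.3, and 0.426% of the 13855 genes (59 genes) had a fold at least as high. It stayed past 2-fold under every pseudocount and scaling tried, with log2 folds between 1.55 and 3.93. The loci beside AMX2 in the RefSeq order, Cre01.g000600 and Cre01.g000700, had log2 folds of -0.26 and -0.16. Within 5 loci on either side, the log2 folds ran from -1.13 (Cre01.g000800) to 0.64 (Cre01.g000400).

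A search of the table's annotation for the same enzyme families found 5 further loci. AMX3 is the other gene with a copper amine oxidase annotation and is described as amiloride-sensitive. AMX3 had 0.934 RPKM in the deprived library, against 0.0614 RPKM in the replete library, and its replete value has the pattern of a gene without reads. Read at the shortest length that fits this pattern, about 33.0 reads lay behind the deprived value. Without the added count, the deprived value was 9.57 times a limit of 3 counts in the replete library. This figure leaves out the counting error of the deprived value, so it is not a lower bound. For a transcript of 1000 bases, the lower end of the interval of its ratio was 2.18. Its mean stayed below 1 RPKM, and on the scale with 1 RPKM added its log2 fold was 0.87.

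Cre06.g303050, described as an NADH nitrate reductase with a cytochrome b5-like domain, had 7.39 RPKM in the deprived and 1.34 RPKM in the replete library. Its log2 fold was 1.84, with an interval of the ratio from 3.50 to 11.2, and it stayed between 1.64 and 1.89 under the scalings. The remaining loci of the search differ in kind: a Rieske ferredoxin (Cre02.g093650), the fusion protein gene ERM3 and the flavin-type oxidase gene CPLD35. Their log2 folds were 0.02, 0.09 and 0.00, and each changed sign with scaling.

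Ordered by level, GLN2, GLN1, GLN4, GDH2 and GDH1 followed one another from the top in both libraries. GLN4 and GDH2 did not differ beyond counting error in the deprived library (intervals of 45.5 to 52.8 and 42.5 to 49.6 RPKM) and were apart in the replete library (46.6 to 54.6 and 33.5 to 40.3 RPKM). The order changed below GDH1. AMX2, NII1 and GLN3 followed in the deprived library, and GLN3, AMX2 and NII1 in the replete library, where the intervals of AMX2 and NII1 overlapped (0.438 to 1.43 and 0.210 to 0.865 RPKM). NIT1 was lowest in both.

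The rest of the nitrogen pathway was described with 36 further genes matched by symbol, 29 of them with a mean of at least 1 RPKM. Of these 29, 2 were higher by 2-fold or more in the deprived library and 2 lower, against 5.59% and 1.64% of all genes. Their median log2 fold was 0.07, and it was negative with equal medians (-0.13), with trimmed mean scaling (-0.11) and with quantile normalization (-0.04). The list thus held both directions, and its sub-groups are given in pathway order.

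Among 9 genes for nitrate and nitrite transport, 6 passed the filter and 1 was at least 2-fold higher. That gene was NAR1.2, encoding a chloroplast envelope anion transporter, with 92.5 RPKM in the deprived and 41.9 RPKM in the replete library. Its log2 fold of 1.13 was 0.92 after scaling to the same median. NAR1.3, the most abundant of the sub-group, had 102 RPKM in the deprived and 97.3 RPKM in the replete library.

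Ammonium transport was represented by 5 genes, of which 4 passed the filter. RHP1, an Rh protein gene described as more expressed in high CO2, had 4.02 RPKM in the deprived and 9.91 RPKM in the replete library, a log2 fold of -1.12. The interval of its ratio ran from 0.282 to 0.548. AMT1Gb, an ammonium transporter gene with the highest level in the sub-group, had 17.5 RPKM in the deprived and 13.6 RPKM in the replete library. GLB1, encoding the nitrogen sensor protein PII, had 42.6 RPKM in the deprived and 58.4 RPKM in the replete library, a log2 fold of -0.45.

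Glutamate synthase uses the glutamine made by glutamine synthetase, and its genes differed in direction. GSN1, the NADH-dependent enzyme gene, had 82.9 RPKM in the deprived and 64.2 RPKM in the replete library. GSF1, the ferredoxin-dependent enzyme gene, which is outside the naming rule and was chosen after its values were seen, had 30.3 RPKM in the deprived and 46.7 RPKM in the replete library. The log2 folds of 0.36 and -0.61 kept their signs under all 4 scalings. GSN1 was 2.74 times as abundant as GSF1 in the deprived library and 1.37 times in the replete library.

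For the use of urea, purines and amino acids, 6 genes were matched, and the 4 past the filter all had log2 folds above 0, also under the 4 scalings. As deposited, 8595 of all 13855 genes past the filter had folds above 0, so the direction alone does not set the 4 apart. DUR3A, a urea transporter gene, had 4.92 RPKM in the deprived and 1.05 RPKM in the replete library, a log2 fold of 1.53 with an interval of the ratio from 2.83 to 11.3. Its adjacent copy DUR3B, the most abundant of the sub-group, had 12.7 RPKM in the deprived and 6.31 RPKM in the replete library (log2 fold 0.91). Outside the naming rule and chosen after its values were seen, LAO1, a periplasmic amino acid oxidase gene described as induced by nitrogen starvation, had 0.0825 RPKM in the deprived and 0.0631 RPKM in the replete library, values with the pattern of 1.01 reads and no reads.

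The 5 molybdenum cofactor genes, which serve the nitrate reductase cofactor, were all within 2-fold. CNX5 had the highest mean over both libraries, with 13.8 RPKM in the deprived and 8.31 RPKM in the replete library. In the replete library CNX1B (11.98 RPKM) and CNX1C (11.5 RPKM) had higher levels than CNX5. Among 7 aminotransferase genes, which pass amino groups between glutamate and aspartate or alanine, 1 was at least 2-fold lower. AST4, annotated as an aspartate aminotransferase with weak mitochondrial prediction, had 9.18 RPKM in the deprived and 30.1 RPKM in the replete library, a log2 fold of -1.61 with an interval of the ratio from 0.245 to 0.370. AST1, the most abundant of them, had 87.5 RPKM in the deprived and 156 RPKM in the replete library, with a log2 fold of -0.83 that reached -1.04 after scaling to the same median. AST2 and AST3, of the same annotation and also chosen after their values were seen, had log2 folds of 0.68 and 0.52, so the aspartate aminotransferase genes did not share a direction.

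**Figure D3:**
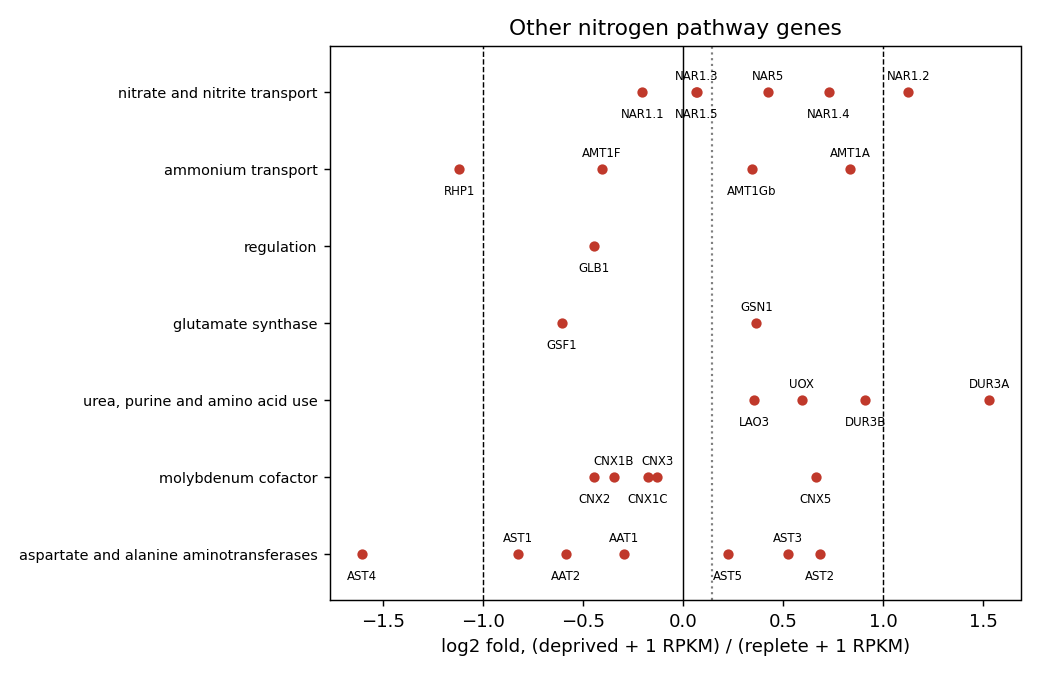
Log2 folds, deprived over replete with 1 RPKM added to each, of the 29 other nitrogen pathway genes with a mean of at least 1 RPKM, by sub-group. Dashed lines mark 2-fold and the dotted line the median over 13855 genes (0.14). DUR3A and NAR1.2 lie beyond 2-fold on the higher side and RHP1 and AST4 on the lower side.

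**Figure D4:**
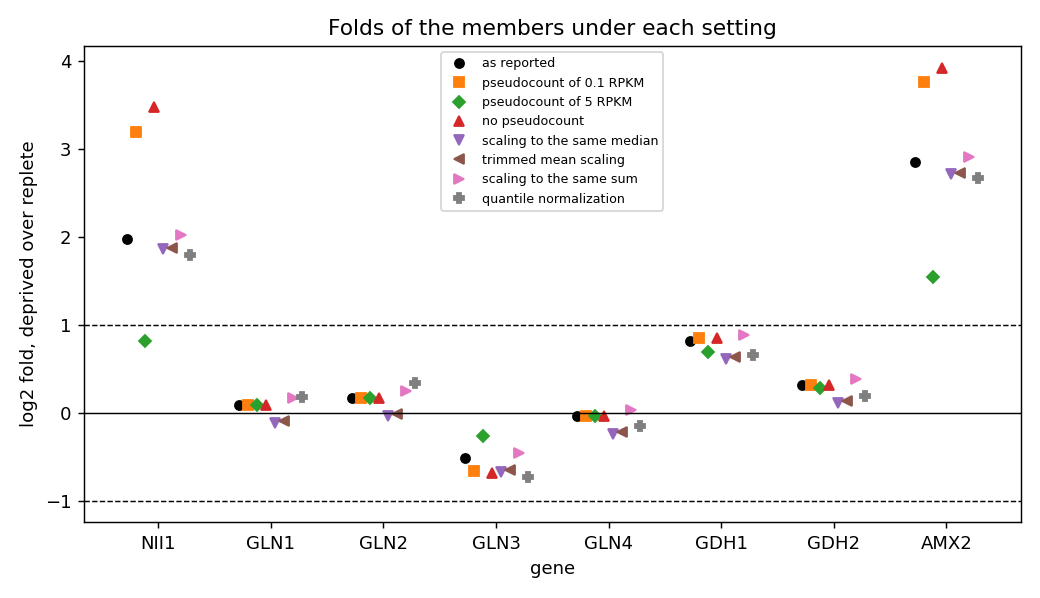
Log2 folds of the 8 members with a mean of at least 1 RPKM under each pseudocount and scaling. Dashed lines mark 2-fold. AMX2 stays past 2-fold throughout, NII1 is at 0.82 with a pseudocount of 5 RPKM, and GLN1, GLN2 and GLN4 lie on both sides of 0.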

How the data were processed

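The authors deposited RPKM values for 17147 loci in 1 deprived and 1 replete library, matched to the samples by the library codes in the labels. Bowtie is named, with no version, per the submitters' processing notes. Counting, genome build and annotation: not given in the sources used here, so no coordinates are printed. Gene order came from the RefSeq table of assembly Chlamydomonas_reinhardtii_v5.5, in which 9 of 9 measured members matched by locus number.

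The deposited RPKM values hold 0 zeros, and 1249 loci share the ratio 0.870. This looks like a count added to every gene in both of 2 runs of a library. On that inference about 12.3 reads lie behind 1 RPKM in the deprived and 10.4 in the replete library at 1000 bases. Ratio and share intervals are Clopper-Pearson intervals (95%) from reads without the added count. Level intervals are exact Poisson intervals that keep it. Limits for genes without reads use 3 counts per library and leave the added count out.

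Folds used a pseudocount of 1 RPKM and a filter of a mean RPKM of at least 1, with Python 3.11.15, numpy 2.4.6, pandas 2.3.3 and SciPy 1.17.1. Tested on simulated data for the deprived against replete comparison (17147 genes), 100 of 100 genes raised 8-fold and 96 of 100 lowered 8-fold were found past 4-fold, with 0 others. The changed genes were all more abundant, averaged over both libraries, than AMX2 and NII1, and only counting noise was simulated. The simulation therefore checks the computation and gives no error rate for the 2-fold counts or for genes at low levels. All 9 members are named. Of the other pathway genes, those at least 2-fold different, the 2 highest and 2 lowest folds and the most abundant of each sub-group are named, and no genes of like pattern, since 2 libraries give 1 fold per gene. The members and lists were chosen with earlier results of these data known. Pseudocounts of 0.1 and 5 RPKM and none, 4 scalings and other filters were tried. The scalings were equal medians, equal sums, quantile normalization and a trimmed mean. The trimmed mean drops 30% of the genes at each end by log ratio and 5% at each end by mean log2 level. A planned motif search in promoters was not run.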

Additional observations from a re-analysis of the deposited data

How the results depend on the processing

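The count of 2 members at least 2-fold higher was 1 with a pseudocount of 5 RPKM and 1 with a mean of at least 5 RPKM, which NII1 does not pass, and 2 under the other 7 settings. No setting gave a member at least 2-fold lower (count 0). The members' median log2 fold lay between 0.03 (same median) and 0.31 (same sum). Of the other nitrogen pathway genes, 1 was at least 2-fold higher with equal medians, with trimmed mean scaling, with quantile normalization and with a pseudocount of 5 RPKM, against 2 as reported, and 3 were so without a pseudocount and with 0.1 RPKM. Those at least 2-fold lower were 2 as reported, 1 with a pseudocount of 5 RPKM and 3 with equal medians and with trimmed mean scaling, where AST1 joined them. After quantile normalization the deprived shares of GLN1, GLN2 and GLN4 were 13.03%, 84.2% and 2.68%, and the replete shares 14.1%, 81.9% and 3.66%. The cause was not tested. Of 70 alternative folds of single members, 12 moved by more than the distance from the middle of the counting interval to its end. The 70 include folds under other filters, which cannot move because a filter leaves a fold as it is. The fall of NII1 to 0.82 with 5 RPKM was not among the 12, because its interval is wide. The 12 of 70 is therefore no measure of stability. The folds of AMX2 and NII1 kept their sign, but no setting tried could have changed it. A pseudocount or filter cannot turn a sign, and the scaling shifts were small beside these folds. Over all genes, 1376 were at least 2-fold higher without a pseudocount and 286 with 5 RPKM, against 775 as reported, while 356 and 115 were lower, against 227. No paired analysis was possible because each condition has 1 library, and for the same reason no library could be left out. Depth limits AMX2, NII1, NIT1, NIT2, AMX3, DUR3A and Cre06.g303050, among others, whose replete values rest on few or no inferred reads. At 1000 bases these were 8 for AMX2, 3 for NII1, 11 each for NIT2 and DUR3A, and 15 for Cre06.g303050.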
